A study of Mus musculus with 12 samples.

Results

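The ERVB2 to ERVB5 elements are mouse endogenous retroviruses of the ERVK family, within the LTR class of repeats. Members were taken by name, as every repeat whose subfamily name begins with ERVB2, ERVB3, ERVB4 or ERVB5. They comprised 16 of the 1528 repeat subfamilies counted in each library, and 1240 of the 781637 single repeat loci for which group means were given. Of the 16 subfamilies, 8 are internal regions and 8 are long terminal repeats (LTRs). The set was chosen by its normalised counts on beads without antibody, where ERVB4 RNA stood out. Levels on those beads are therefore given as a description, and tests are confined to comparisons that leave them out.

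An endogenous retrovirus is the inherited copy of a retrovirus that once entered the germ line. The internal region, marked -I and -int in repeat names, derives from the gag, pro and pol genes, which encode the particle and its enzymes. The flanking LTRs carry the promoter and the polyadenylation signal. In the male germ line such elements are held silent by DNA methylation and by the piRNA pathway, and *Mael* encodes a protein of that pathway. ORF1p is the RNA-binding protein encoded by the LINE-1 (L1) retrotransposon, an element with no LTRs, and it coats L1 RNA in cytoplasmic particles.

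All 12 libraries came from testes of Mael-/- mice of the C57BL/6 strain aged 3 months, so no group has intact *Mael* and no effect of its loss can be read. TOTAL is the clarified extract, to which EDTA, an agent that takes ribosomes apart, had been added to 10 mM. INPUT is the pool of fractions 5 to 8 from a sucrose gradient of that extract. IP is the RNA recovered from the pool with a rabbit antibody against ORF1p on magnetic beads, and BO is the RNA recovered from it with beads that carry no antibody. Each group held 3 libraries, described by the submitters as biological replicates. The labels do not say how many animals went into each one, or whether libraries with the same number share an extract.

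Reads assigned to repeat subfamilies numbered 6021800 to 7282171 per library in TOTAL, 3045169 to 3880641 in INPUT, 1712212 to 3512997 in BO and 1384904 to 2003193 in IP. BO replicate 3 stood apart, with 52.1% of its reads on the large ribosomal RNA, against 3.18% and 3.25% in the other BO libraries. Reads on 7SL RNA, the RNA of the signal recognition particle, took 38.1% to 51.6% of TOTAL, 17.0% to 18.7% of INPUT, 1.16% to 1.63% of IP and at most 0.224% of BO. In TOTAL, spermatocyte markers were high (Sycp1, a protein of the synaptonemal complex, at a mean of 9433 normalised counts) and spermatid markers low (Tnp1, a transition protein of spermatid chromatin, at 30.1). Leydig and Sertoli cell genes were also present (Star at 14852 and Clu at 66084). In RNA from whole testis, fewer cells of a type and less RNA per cell cannot be told apart.

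Values per subfamily are the authors' normalised read counts, in which the upper quartile of each library was brought to a common level. They are relative levels within a library. The amount of RNA on the beads was not analysed here, so a high level in BO is a high share of what the beads held. Of the 16 subfamilies, 13 reached a mean of 10 over the 12 libraries and were tested. The other 3 were LTRs with few reads. ERVB4_1-LTR_MM had 0 to 12 reads per library, ERVB4_2-LTR_MM had 0 to 15 and ERVB4_3-LTR_MM had 3 to 23, and they were left out of the main fit.

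ERVB4_1B-I_MM-int, the internal region of ERVB4_1B, was by far the most abundant member. Its normalised count was 91182, 64035 and 58154 in the TOTAL libraries. It was 110550, 76618 and 77818 in INPUT, 265442, 256438 and 216483 in BO, and 61955, 45368 and 41002 in IP. The 3 BO libraries lay above all others and did not overlap any group, the IP libraries lay below all INPUT libraries, and IP overlapped TOTAL. The group means were 71124 ± 17618 in TOTAL, 88329 ± 19254 in INPUT, 246121 ± 26059 in BO and 49442 ± 11054 in IP (SD, n = 3).

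On the beads without antibody ERVB4_1B-I was thus 4.98-fold above IP, 2.79-fold above INPUT and 3.46-fold above TOTAL. It was the first subfamily by reads in BO replicates 1 and 2, and the second, after the large ribosomal RNA, in BO replicate 3. Its rank was 3 to 6 in TOTAL, 3 to 5 in INPUT and 5 to 9 in IP. As a share of all reads on repeats it took 12.1%, 11.5% and 4.82% of the BO libraries, the lowest being the library rich in ribosomal RNA. Once ribosomal and 7SL reads were set aside, the share was 11.7 ± 1.03% in BO, 4.23 ± 0.590% in INPUT, 2.66 ± 0.623% in TOTAL and 2.61 ± 0.497% in IP (SD, n = 3). The level in BO therefore stood above the others on raw shares of these reads as well as on normalised counts. Without BO replicate 3, the fitted log2 difference of IP from BO was -2.42, against -2.33 with it. With each library scaled to its total, the log2 difference of BO from TOTAL was 2.87, against 1.81 on upper quartile values. The median of all subfamilies moved as well, from 0.05 to 1.09.

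The LTR that flanks the same element followed it. ERVB4_1B-LTR_MM was at 4886, 4546 and 4458 in TOTAL, 6575, 5288 and 5749 in INPUT, 15533, 14981 and 12938 in BO and 4248, 3143 and 2874 in IP. No 2 of the 4 groups overlapped, and BO was 4.23-fold above IP, 2.47-fold above INPUT and 3.13-fold above TOTAL. With each library scaled to its total, its log2 difference of BO from TOTAL was 2.70, against 1.64 on upper quartile values. The internal region outnumbered this LTR by 17.0 ± 0.215 in BO, 14.4 ± 0.158 in IP, 14.9 ± 1.69 in INPUT and 15.3 ± 2.99 in TOTAL (SD, n = 3), so reads on both parts of the element moved nearly in step.

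The sister element did not share the BO level. ERVB4_1-I_MM-int, the internal region of ERVB4_1, was at 9179, 8771 and 8656 in TOTAL, 15740, 12852 and 13001 in INPUT, 8906, 7618 and 7141 in BO and 9686, 5952 and 5654 in IP. BO overlapped IP and TOTAL and lay below every INPUT library. The ratio of ERVB4_1B-I to ERVB4_1-I within a library, which no scaling of that library can alter, was 29.8, 33.7 and 30.3 in BO. It was 9.93, 7.30 and 6.72 in TOTAL, 7.02, 5.96 and 5.99 in INPUT, and 6.40, 7.62 and 7.25 in IP. Each BO library thus stood far above the highest ratio of any other group, as the plot of ratios within a library shows. Between the other groups this ratio was not shown to differ (exact two-sided permutation tests over 3 against 3 libraries, p = 0.2 for IP against INPUT, 0.5 for IP against TOTAL and 0.2 for INPUT against TOTAL). Adjusted over 6 comparisons of 2 such ratios, these were 0.6, 1 and 0.6. With 3 libraries a group the smallest p is 0.1. Taken by replicate number, the ratio was lower in INPUT than in TOTAL in 3 of 3 pairs (exact two-sided paired permutation test, p = 0.25, the smallest that 3 pairs allow).

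**Figure D1:**
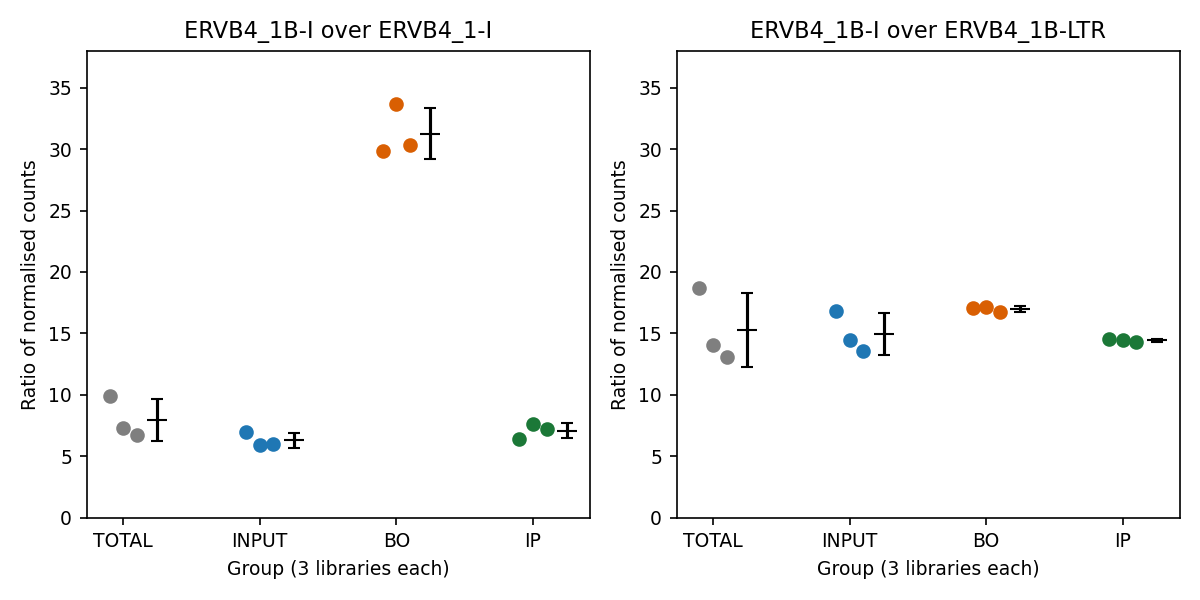
Ratio of the normalised count of ERVB4_1B-I to that of ERVB4_1-I (left) and of ERVB4_1B-LTR (right) in each of the 12 libraries, with the group mean and SD beside the points. Against ERVB4_1-I the BO libraries sit at 29.8 to 33.7 and the other groups at or below 9.93, whereas against its own LTR the BO libraries sit at 16.7 to 17.1, within the range of TOTAL.

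The remaining ERVB4 subfamilies that were tested were low and had no raised level in BO. Among the LTRs left out of the fit, ERVB4_3-LTR and ERVB4_1-LTR had their highest mean in BO (12.7 and 4.66). ERVB4_2-LTR had its lowest there (1.68). Their reads per BO library, 0 to 23, are too few to read a level from. ERVB4_1C-LTR_Mm ranged from 129 to 247 over the 12 libraries, with means of 187 in TOTAL, 209 in INPUT, 151 in BO and 160 in IP. ERVB4_2-I_MM-int ranged from 67.4 to 160, and all its groups overlapped. ERVB4_3-I_MM-int was at 56.9, 42.8 and 37.2 in TOTAL, 54.5, 44.9 and 45.4 in INPUT, 23.7, 27.3 and 48.1 in BO and 29.4, 29.5 and 22.4 in IP. Its IP libraries lay below every TOTAL and INPUT library.

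The 2 ERVB2 internal regions parted. ERVB2_1-I_MM-int was at 107, 63.8 and 94.6 in BO, against 22.3, 30.7 and 21.3 in TOTAL, 14.1, 30.2 and 20.4 in INPUT and 19.1, 14.1 and 9.75 in IP. BO overlapped no other group and its mean was 6.18-fold that of IP, a larger ratio than that of ERVB4_1B-I but on 49 to 172 reads per BO library and 10 to 13 per IP library. ERVB2_1A-I_MM-int was at 252, 146 and 163 in TOTAL, 191, 189 and 183 in INPUT, 117, 152 and 152 in BO and 149, 184 and 155 in IP, and IP overlapped each of the other groups.

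ERVB3 and ERVB5 held the members whose level was highest in IP. ERVB3_1-I_MM-int was at 172, 172 and 138 in IP, against 99.0, 71.3 and 66.0 in TOTAL, 108, 69.4 and 97.5 in INPUT and 106, 76.8 and 86.6 in BO. ERVB5_2-LTR_MM was at 413, 298 and 265 in IP, against 121, 160 and 121 in TOTAL, 156, 149 and 189 in INPUT and 108, 130 and 93.0 in BO. In both, each IP library exceeded all 9 libraries of the other groups. ERVB5_1-I_MM-int was at 92.7, 70.4 and 54.6 in IP, 55.1, 48.3 and 53.2 in TOTAL, 43.2, 38.4 and 27.2 in INPUT and 20.6, 37.7 and 17.6 in BO. Its IP libraries lay above INPUT and BO and overlapped TOTAL. ERVB3_1-LTR_MM ranged from 18.2 to 49.9 and ERVB5_1-LTR_MM from 18.2 to 47.4 over the 12 libraries, and in both the IP libraries lay above the BO libraries.

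**Figure D2:**
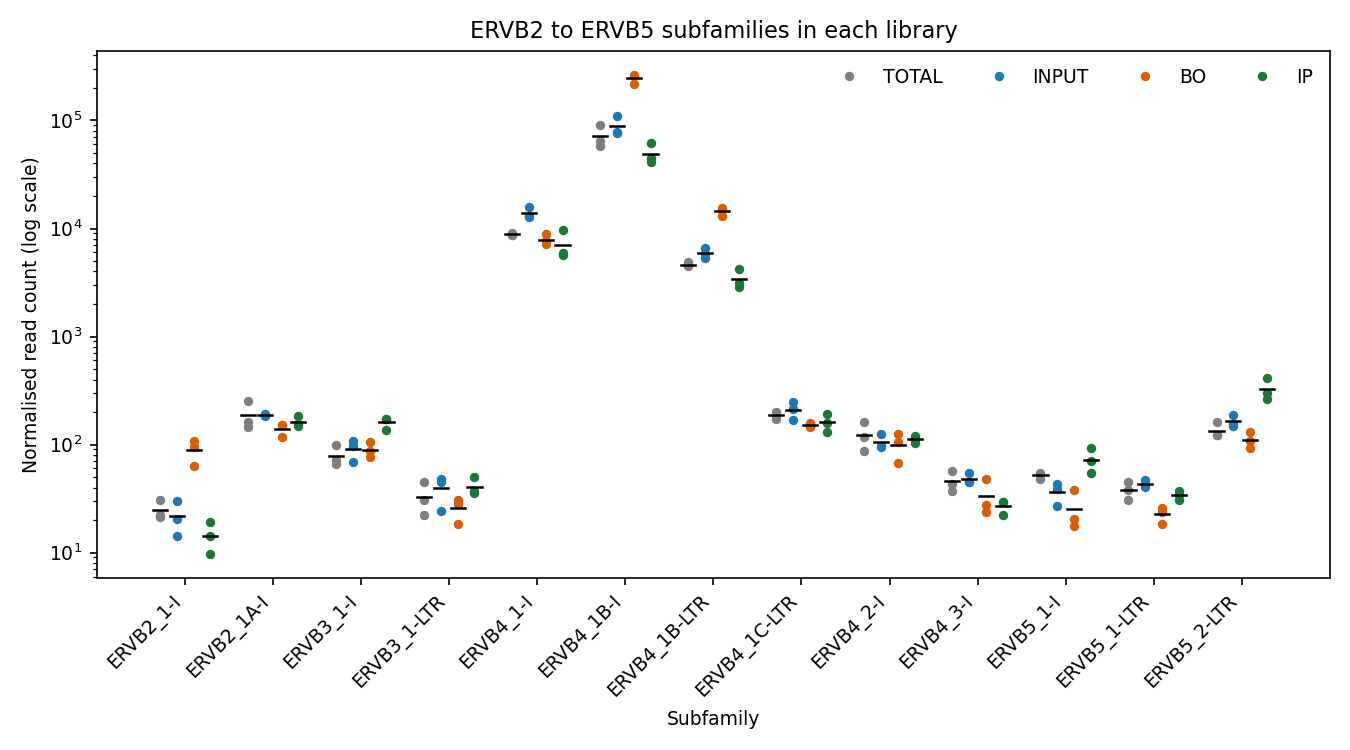
Normalised read count on a log scale of the 13 ERVB2 to ERVB5 subfamilies with a mean of at least 10, in each library of TOTAL, INPUT, BO and IP (points) with the group mean (bar). ERVB4_1B-I, ERVB4_1B-LTR and ERVB2_1-I have all 3 BO points above every other point of their column, and ERVB3_1-I and ERVB5_2-LTR have all 3 IP points on top.

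IP was next compared with the fractions that entered it, to ask which members the antibody recovered above their level in the gradient pool. A subfamily was called when its log2 difference exceeded 1 in either direction with an adjusted p under 0.05 (limma, Benjamini-Hochberg over 1180 subfamilies). Against INPUT, 0 of 13 members were called higher and 1 of 13 lower, where 3.22% and 2.88% of all subfamilies were called. At an unadjusted p under 0.05, with no limit on the fold, 3 members were higher and 5 lower, beside 15.5% and 23.4% of all subfamilies. On reads recovered from the normalised counts, edgeR and DESeq2 each called 2 members higher and 0 lower, where edgeR called 3.90% and 2.63% of all subfamilies and DESeq2 4.24% and 2.80%.

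The member called lower in IP was ERVB4_1-I, with a log2 difference of -1.004 (SE 0.17, adjusted p = 0.00121). The call sat on the 2-fold limit and was lost without replicate 2 (log2 difference -0.95) or 3 (-0.91), by edgeR (-0.90) and DESeq2 (-0.87), and under 2 other scalings. Over all alternatives its adjusted p ran from 6.30e-06 to 0.358. ERVB4_1B-I had a log2 difference from INPUT of -0.84 (SE 0.20, adjusted p = 0.00875), and ERVB4_1B-LTR had a difference of -0.79 (SE 0.13, adjusted p = 0.00115). ERVB4_3-I had one of -0.81 (SE 0.27, adjusted p = 0.0431). These 3 passed the limit on p without reaching 2-fold. ERVB4_3-I was over 0.05 in 9 of 13 alternatives, edgeR, DESeq2 and each replicate left out among them, with adjusted p-values up to 0.622. ERVB4_1B-I was over it without replicate 2 (adjusted p = 0.117) or 3 (0.0600) and on library totals (0.602), and ERVB4_1B-LTR on library totals alone (0.622). Scaled to library totals, where the median of all subfamilies lay at 0.47, the differences of ERVB4_1-I, ERVB4_1B-I, ERVB4_1B-LTR and ERVB4_3-I were -0.46, -0.29, -0.25 and -0.29.

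In the other direction ERVB5_1-I had a log2 difference of 0.97 from INPUT (SE 0.29, adjusted p = 0.0278), ERVB5_2-LTR one of 0.96 (SE 0.19, adjusted p = 0.00286) and ERVB3_1-I one of 0.82 (SE 0.21, adjusted p = 0.0122). ERVB5_1-I was over 0.05 with any replicate left out (adjusted p of 0.0807 to 0.125) and ERVB3_1-I without replicate 2 (0.192), while ERVB5_2-LTR stayed under it in all 14 alternatives. The summed locus means of ERVB5_2-LTR, described further on, did not show this difference (IP to INPUT ratio of 0.612, against 1.98 in the subfamily counts). None of the 3 reached 2-fold, and ERVB5_1-I and ERVB5_2-LTR were the members that edgeR and DESeq2 placed above it, at 1.05 and 1.03 by edgeR. Scaled to library totals the differences of ERVB5_1-I, ERVB5_2-LTR and ERVB3_1-I were 1.52, 1.51 and 1.36, and all 3 were called, as were 10.7% of all subfamilies. The other 6 members had adjusted p-values of 0.101 or more. The median log2 difference of the 13 members was -0.35, beside -0.06 over all subfamilies.

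Against the whole extract, 2 of 13 members were called higher in IP and 0 of 13 lower, where 2.88% and 3.47% of all subfamilies were called. ERVB5_2-LTR rose 2.43-fold, with a log2 difference of 1.26 (SE 0.19, adjusted p = 0.000652), and was called under every alternative run, with adjusted p-values up to 0.0124. Its summed locus means, described further on, did not show this rise. ERVB3_1-I rose 2.04-fold, with a log2 difference of 1.03 (SE 0.21, adjusted p = 0.00435). Its call was lost without replicate 2 (0.92, adjusted p = 0.0721), without replicate 3 (1.02, adjusted p = 0.0529) and with a pseudocount of 10 (0.95), and over all alternatives its adjusted p ran from 7.63e-08 to 0.0721. At an unadjusted p under 0.05, 4 members were lower, beside 20.8% of all subfamilies. Both edgeR and DESeq2 called 2 members higher and 0 lower, where edgeR called 3.05% and 3.22% of all subfamilies and DESeq2 3.31% and 2.97%. ERVB4_1B-LTR had a log2 difference of -0.46 (SE 0.13, adjusted p = 0.0313) and ERVB4_1B-I one of -0.52 (SE 0.20, adjusted p = 0.0864). That of ERVB4_1B-LTR was over 0.05 in 6 of 14 alternatives, with edgeR (0.0868), DESeq2 (0.0734) and without replicate 2 or 3 among them, and reached 0.246 at most. Within each replicate number, ERVB4_1B-I was lower in IP than in TOTAL. With that number as a block in the limma fit its adjusted p was 0.00209, short of 2-fold, though these groups were not taken as paired.

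The direction of 9 members in IP against TOTAL, the ERVB4_1B pair included, depended on the scaling. Scaled to library totals, all 13 members had positive differences, 9 of them with a changed sign. There 11 members and 85.9% of all subfamilies were called higher and 0 members and 1.44% lower, while the median of all subfamilies moved to 1.49 on the log2 scale. ERVB4_1B-I then stood at 1.03, below that median as it was below the median of -0.05 on upper quartile values. The 7SL share given above, 38.1% or more in TOTAL and under 2% in IP, moves with this difference, and its part in it was not tested.

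**Figure D3:**
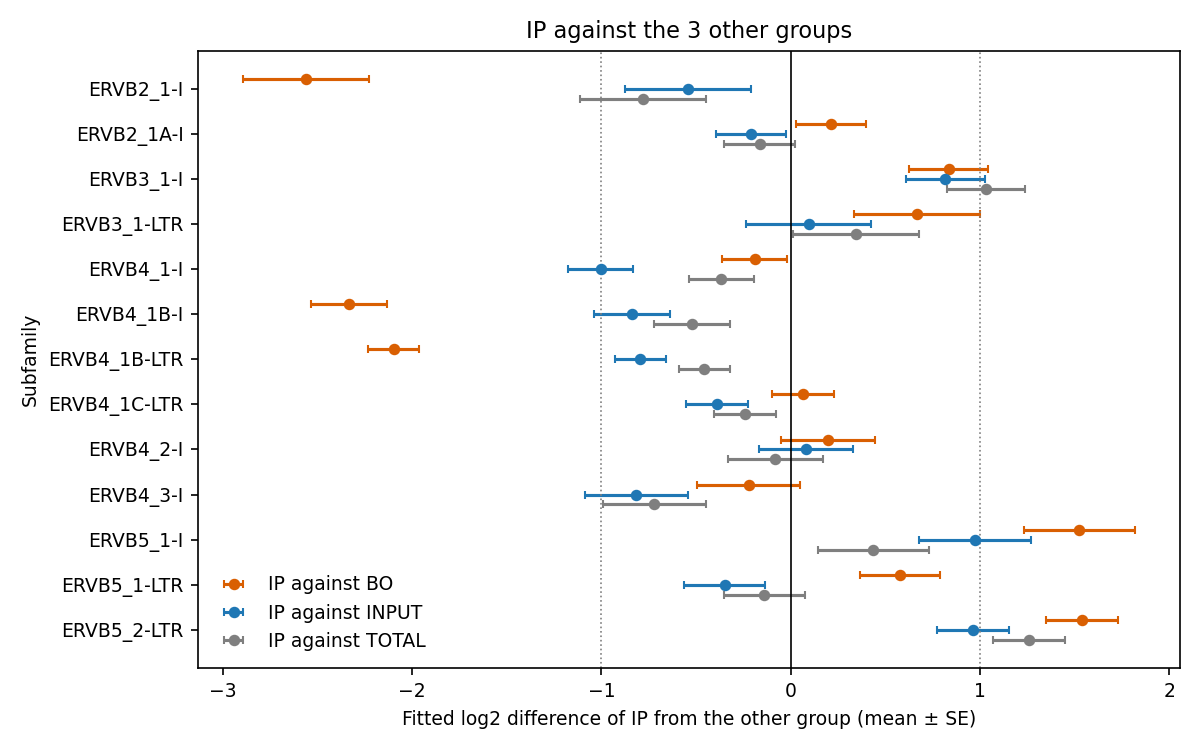
Fitted log2 difference of IP from BO, INPUT and TOTAL for the 13 subfamilies, with the standard error of the fit over 3 libraries a group. Dotted lines mark 2-fold. ERVB2_1-I, ERVB4_1B-I and ERVB4_1B-LTR lie beyond 2-fold to the left in the comparison with BO, and ERVB5_1-I and ERVB5_2-LTR beyond it to the right.

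On upper quartile values no member was called between the gradient pool and the extract. INPUT against TOTAL gave 0 of 13 members higher and 0 of 13 lower by limma, where 0% and 0.339% of all subfamilies were called. At an unadjusted p under 0.05, 2 members were higher and 0 lower, beside 9.07% and 7.97% of all subfamilies, and edgeR and DESeq2 called 0 members either way, with 0.508% and 0.763% of all subfamilies called lower and 0 higher. The largest difference was that of ERVB4_1-I, at 0.64 (SE 0.17, adjusted p = 0.0882), and ERVB4_1B-I had one of 0.32 (SE 0.20, adjusted p = 0.471). The INPUT libraries of ERVB4_1-I did not overlap those of TOTAL. Over the alternatives other than library totals, its adjusted p ran from 0.00106 to 0.556. DESeq2 had 1 member higher at an adjusted p under 0.05, short of 2-fold. With the replicate number as a block, which pairs these 2 groups, the adjusted p of ERVB4_1-I was 0.0118 and that of ERVB4_1B-I 0.0624, and the counts were still 0 and 0. Scaled to library totals, 10 of 13 members and 54.0% of all subfamilies were called higher in INPUT, 0 members and 0.424% lower, and ERVB4_1B-I stood at 1.32, beside a median of 1.03 over all subfamilies.

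For the comparisons with BO, from which the set was chosen, the same fit gives sizes and no test. In IP against BO, 3 of 13 members were past 2-fold lower and 2 past 2-fold higher, where 4.83% and 6.19% of all subfamilies were past it. The lower ones were ERVB2_1-I (log2 difference -2.56, SE 0.33), ERVB4_1B-I (-2.33, SE 0.20) and ERVB4_1B-LTR (-2.10, SE 0.13). The higher ones were ERVB5_2-LTR (1.54, SE 0.19) and ERVB5_1-I (1.53, SE 0.29). The other 8 members lay between -0.22 and 0.84.

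In BO against INPUT, 3 of 13 members were past 2-fold higher and 0 lower (3.22% and 3.98% of all subfamilies), and in BO against TOTAL 3 were higher and 1 lower (3.47% and 5.25%). The 3 higher ones in each case were ERVB2_1-I, ERVB4_1B-I and ERVB4_1B-LTR, with log2 differences from INPUT of 2.02, 1.49 and 1.30. The lower one was ERVB5_1-I, at -1.09 against TOTAL. Without BO replicate 3, a library chosen for this after its ribosomal share was seen, it stood at -0.88 and ERVB5_1-LTR passed -1 against INPUT, at -1.02. With each library scaled to its total, ERVB5_1-I stood at -0.06 against TOTAL, beside a median of 1.09 over all subfamilies. These comparisons share the BO libraries.

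The profile of ERVB4_1B-I over the 12 libraries was compared with those of the 1179 other subfamilies, by Pearson correlation of log2 values. The closest was its own LTR (r = 0.990), then RMER16A3 (0.984), Charlie1b (0.960), the simple repeat (CCAA)n (0.959) and MLT1D-int (0.954). RMER16A3 was at 7760 in BO, 2831 in INPUT, 2194 in TOTAL and 1693 in IP. Among members, ERVB2_1-I reached 0.881, ERVB4_1-I 0.118 and ERVB5_1-I -0.74. These are descriptions over points that share libraries and groups.

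Single loci were examined in the tables that give 1 mean of normalised counts per group for each repeat locus, for IP with BO, IP with INPUT and IP with TOTAL. These tables hold no value per library, so locus ratios have no error and no test here. Loci are named by the subfamily and the number the authors gave them, and their coordinates were not analysed here. Subfamilies held 3 to 380 member loci. Of all 1240 loci, 1130 had a mean above 0 in some group and 71, from 9 subfamilies, reached 10. The sentences that follow concern such loci, and the other 1169 are too low for a ratio. A locus is an annotation entry, and 1 insertion can be listed as several. Reads shared among near-identical copies cannot be placed with certainty, so values of sister loci are uncertain to that extent.

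Of 66 member loci with a mean of 10 or more in either, 55 were past 2-fold lower and 4 past 2-fold higher, where 56.7% and 19.1% of the 9613 repeat loci were. Repeat loci as a whole had a median IP to BO ratio of 0.403 in this table, against 0.179 for the members. When ratios were centred on the median repeat locus, 41 members were past 2-fold lower and 5 higher, against 26.3% and 32.6% of all loci. BO levels chose the set, and 23 of the 66 loci reached a mean of 10 in BO alone, which fixes their ratios below 1. Another 4 reached it in IP alone, which fixes theirs above 1. Nothing is therefore read from these shares. Loci chosen by an INPUT mean of at least 10, a group in neither side of the ratio, numbered 51, of which 42 were past 2-fold lower and 2 higher, where 44.6% and 13.4% of the 8141 such repeat loci were. This choice was made after the data had been seen.

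Against INPUT, 30 of 53 loci were past 2-fold lower and 3 higher (40.5% and 26.1% of 11107 loci), with a median ratio of 0.471 beside 0.690. Centred in the same way, 19 were lower and 3 higher, against 29.1% and 34.2% of all loci. Against TOTAL, 20 of 51 were lower and 3 higher (31.7% and 29.2% of 9732 loci), with a median ratio of 0.614 beside 0.950. Of the 51 loci against TOTAL, 32 were of ERVB4_1B-I. Loci were kept here too by a mean of 10 or more in either group. Those that reached it in 1 group alone have ratios fixed on 1 side of 1, so nothing is read from these shares.

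The counts of ERVB4_1B-I were spread over many annotated loci. Of its 380 loci, 353 had a mean above 0 and 48 reached 10 in some group. In BO the leading locus held 10.8% of the summed mean, the leading 10 held 69.1% and the leading 20 held 95.4%. The leading 10 held 75.2% in IP, 69.1% in INPUT and 71.3% in TOTAL, so the spread over loci was alike. Of the 10 member loci with the highest mean, 9 were shared by the lists of BO, IP and TOTAL.

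Of 47 loci of ERVB4_1B-I with a mean of 10 or more in BO or IP, 46 were past 2-fold lower in IP, where 56.7% of all repeat loci were, and the exception was ERVB4_1B-I_MM-int_999, with 7.62 in BO and 17.9 in IP. Of the 47, 19 reached 10 in BO alone, 27 in both groups and 1, the exception, in IP alone. All 32 loci of this subfamily with an INPUT mean of at least 10 were past 2-fold lower in IP than in BO, with ratios of 0.0426 to 0.268. Of all repeat loci chosen in this way, 44.6% were. The set was still chosen by BO levels, so this count is a description. The loci described next are the 27 kept by a BO mean of at least 100, which favours a low ratio to BO. Among them the IP to BO ratio ran from 0.0426 to 0.268 with a median of 0.151. The IP to INPUT ratio of the same loci ran from 0.223 to 0.933 with a median of 0.479. All were below 1, and 21 of the 27 were below the 0.690 of the median repeat locus. The IP to TOTAL ratio ran from 0.225 to 1.26 with a median of 0.750. There 24 were below 1, and 21 were below the 0.950 of the median repeat locus.

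The loci had different IP to BO ratios, for which no error can be given. A high BO mean lowers this ratio as much as a low IP mean does. The highest in BO, ERVB4_1B-I_MM-int_433, had a mean of 5458 in BO and 233 in IP, a ratio of 0.0426. In the other tables it was at 1368 in INPUT against 305 in IP, and at 1349 in TOTAL against 304 in IP. ERVB4_1B-I_MM-int_432, with the next number, had 906 in BO and 45.1 in IP, a ratio of 0.0497. Both were low in IP against all 3 other groups.

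At the other end, ERVB4_1B-I_MM-int_517 had 3270 in BO and 878 in IP, a ratio of 0.268, and was above its TOTAL mean in IP (1147 against 909). ERVB4_1B-I_MM-int_515 had 3606 in BO and 886 in IP, a ratio of 0.246, and stood at 1160 in IP against 1100 in TOTAL. ERVB4_1B-I_MM-int_144, the locus with the highest summed mean of this subfamily, had 4576 in BO and 897 in IP, a ratio of 0.196. Close to it were ERVB4_1B-I_MM-int_963 (4019 in BO, 795 in IP) and ERVB4_1B-I_MM-int_588 (2960 in BO, 566 in IP). A low group was formed by ERVB4_1B-I_MM-int_1215 (3876 in BO, 307 in IP) and ERVB4_1B-I_MM-int_1214 (2751 in BO, 218 in IP), both with a ratio of 0.079.

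Against INPUT these loci kept much the same order: locus 433 was at 0.223 and locus 1215 at 0.284, whereas locus 515 was at 0.767 and locus 517 at 0.788. The IP mean enters both ratios. Of the 27 loci, 9 had an IP to BO ratio under 0.1, and their IP to INPUT ratios ran from 0.223 to 0.498. The 4 loci with an IP to BO ratio of 0.1 to 0.15 lay within that range, at 0.241 to 0.468. The 14 loci with an IP to BO ratio of at least 0.15 had IP to INPUT ratios of 0.420 to 0.933.

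**Figure D4:**
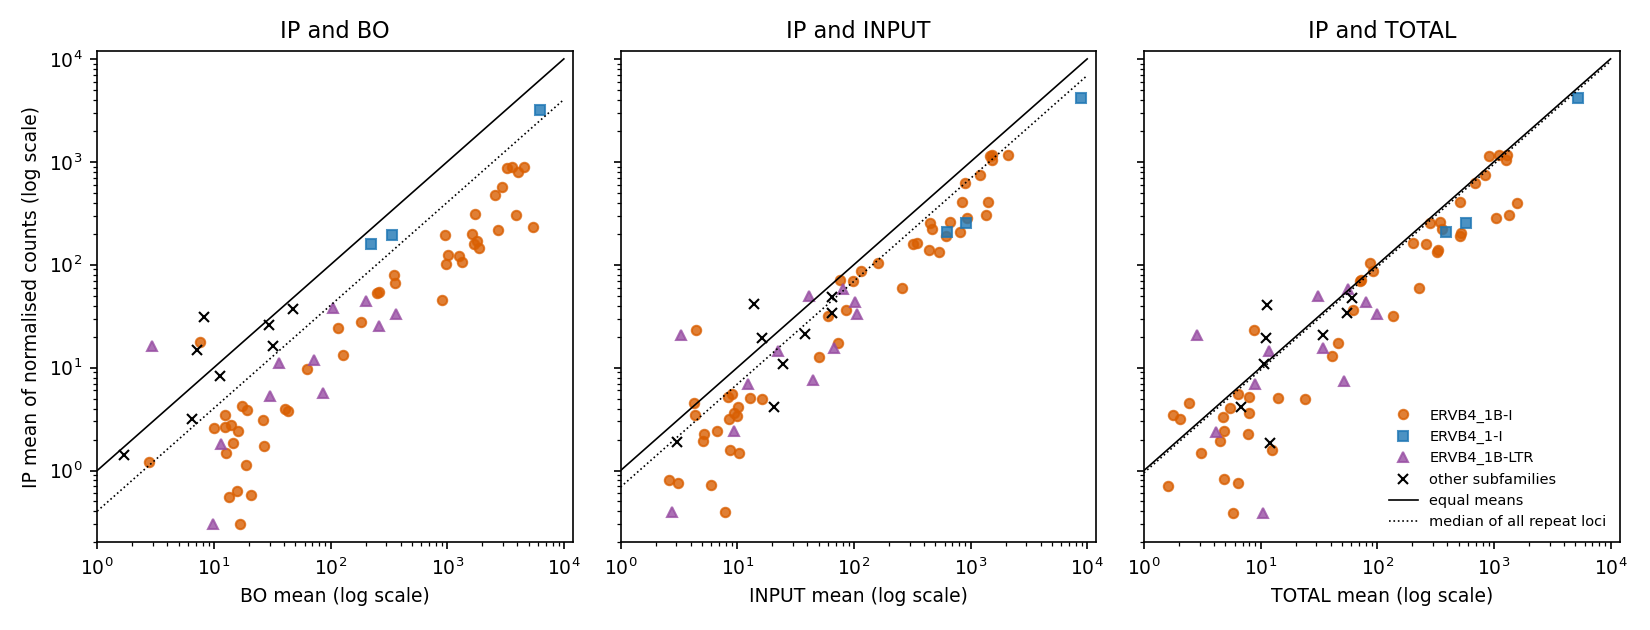
Mean normalised count in IP against that in BO, INPUT and TOTAL for the 71 member loci that reach a mean of 10 in some group, on log scales, with the line of equal means (solid) and the median ratio of all repeat loci (dotted); 1 locus lies outside the axes in each panel. ERVB4_1B-I loci with a BO mean of at least 100 all lie under the dotted line in the BO panel, at ratios of 0.0426 to 0.268, and 21 of the 27 lie under it in the INPUT panel and 21 in the TOTAL panel.

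The counts of ERVB4_1-I came mostly from 1 locus. ERVB4_1-I_MM-int_12 held 91.5% of the summed BO mean of its subfamily. It was at 6274 in BO and 3172 in IP (ratio 0.506), 8829 in INPUT against 4156 in IP (0.471) and 5261 in TOTAL against 4153 in IP (0.789). It had the highest mean of all 1240 loci in each of the 4 groups. The next loci, ERVB4_1-I_MM-int_93 and ERVB4_1-I_MM-int_92, had IP to BO ratios of 0.575 and 0.706, which were the highest among the 37 member loci with a mean of at least 50 in BO or IP. All 37 had IP to BO ratios below 1, and 34 were past 2-fold lower, where 57.7% of the 1042 repeat loci at this cutoff were. This cutoff can be reached in BO alone, which fixes a ratio below 1, and BO levels chose the set. Nothing is read from this count. The ERVB4_1B-I to ERVB4_1-I ratio of summed locus means was 7.38 in BO and 2.10 in IP, and 1.85 in INPUT and 2.37 in TOTAL, so here too BO was highest, at a smaller distance than in the subfamily counts.

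Among LTR loci of ERVB4_1B, 9 of 10 were past 2-fold lower in IP than in BO, again beside 56.7% of all loci, and 3 of the 10 reached a mean of 10 in BO alone. ERVB4_1B-LTR_MM_32 had 361 in BO and 33.2 in IP, and ERVB4_1B-LTR_MM_586 had 87.0 and 5.71. The exception, ERVB4_1B-LTR_MM_51, had 2.98 in BO and 16.0 in IP, and was also above INPUT and TOTAL in IP (ratios of 6.41 and 7.40). The other loci past 2-fold higher in IP than in BO were ERVB3_1-I_MM-int_128 (31.4 against 8.31) and ERVB3_1-LTR_MM_13 (14.9 against 7.16). ERVB3_1-I_MM-int_128, ERVB4_1B-I_MM-int_999 and ERVB4_1B-LTR_MM_51 were the 3 loci past 2-fold higher in IP than in INPUT and than in TOTAL. All 4 loci past 2-fold higher in IP than in BO reached a mean of 10 there in IP alone, which fixes those ratios above 1. Loci 51 and 999 were under 10 in INPUT and TOTAL as well, so their ratios to these groups were fixed above 1 too. Nothing is read from these ratios. Both loci were singled out after their values were seen.

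The leading loci of the other subfamilies were low. ERVB2_1A-I_MM-int_28 had 48.0 in BO and 36.7 in IP, ERVB4_1C-LTR_Mm_413 had 29.6 and 26.0, and ERVB4_3-I_MM-int_93 had 11.3 and 8.35. ERVB5_2-LTR_MM_92 had 6.55 in BO and 3.16 in IP. For ERVB2_1-I, ERVB4_1-LTR, ERVB4_2-I, ERVB4_2-LTR, ERVB4_3-LTR, ERVB5_1-I and ERVB5_1-LTR no locus reached a mean of 10. Their leading loci had BO means of 0.502 to 4.54, and that of ERVB5_1-I, ERVB5_1-I_MM-int_262, had 0.741 in BO and 6.86 in IP.

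The subfamily counts and the locus means were also compared for each member. Both were made from the same libraries, but how the locus means treated reads that map to several loci is not given in enough detail in the sources used here to say which is nearer. For ERVB4_1B-I the IP to BO ratio was 0.201 in the subfamily counts and 0.146 over summed locus means. For ERVB4_1B-LTR it was 0.236 and 0.167, for ERVB3_1-I 1.79 and 1.66, and for ERVB5_1-I 2.87 and 3.06. These 4 had the same direction in both. The median repeat locus was at 0.403 in this table, so ratios of the 2 kinds are not on 1 scale.

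As given, the 2 ratios lay on opposite sides of 1 in 5 of the 13 members, ERVB5_1-LTR, ERVB5_2-LTR, ERVB2_1A-I, ERVB4_2-I and ERVB4_1C-LTR. With the locus ratios centred on the median repeat locus these 5 lay on the same side, and 3 others did not, ERVB2_1-I, ERVB4_1-I and ERVB4_3-I. ERVB5_2-LTR had an IP to BO ratio of 2.95 in the subfamily counts and of 0.946 over its 44 loci, or 2.35 once centred. Its IP to TOTAL ratio was 2.43 and 0.791, the latter 0.833 once centred, and its centred IP to INPUT ratio was 0.887. The rise of ERVB5_2-LTR in IP over TOTAL thus had no counterpart in the locus means. ERVB2_1-I had an IP to BO ratio of 0.162 in the subfamily counts and 0.596 over its 17 loci, whose summed mean was 10.7 in BO. The latter lies above the 0.403 of the median repeat locus, so the locus means do not show a raised BO level of ERVB2_1-I.

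**Figure D5:**
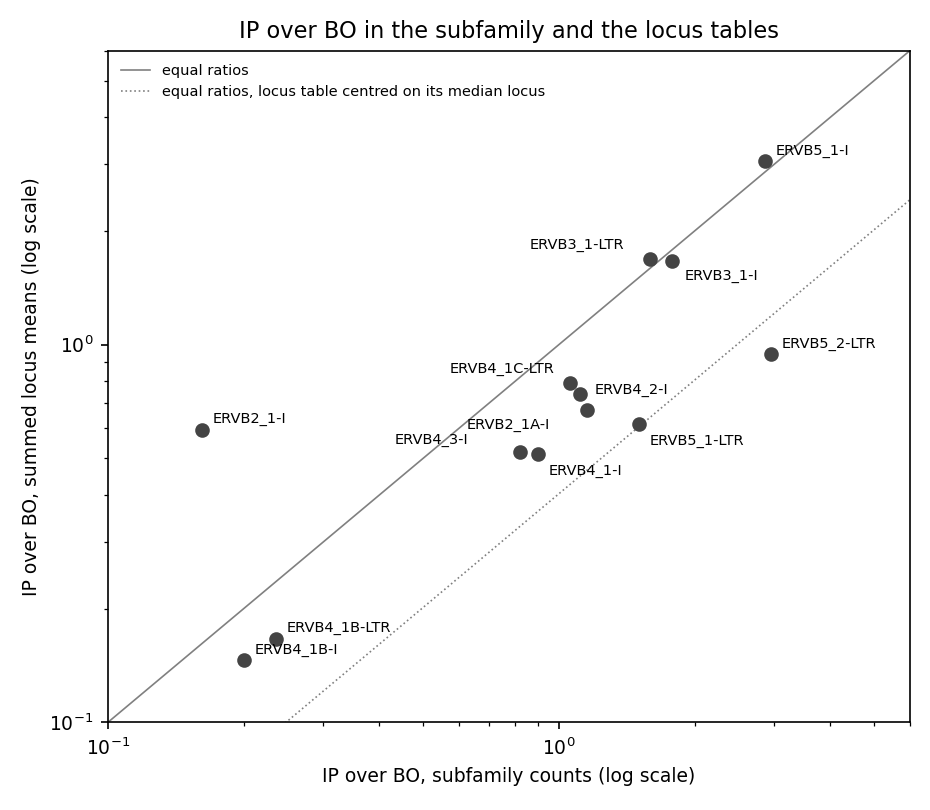
Ratio of IP to BO in the subfamily counts (horizontal, log scale) and over the summed locus means of the same subfamily (vertical, log scale) for 13 subfamilies, with the line of equal ratios (solid) and the same line shifted by 0.403, the median repeat locus (dotted). ERVB4_1B-I and ERVB4_1B-LTR are low on both axes, ERVB2_1-I (0.162 and 0.596) lies far above both lines, and ERVB5_2-LTR (2.95 and 0.946) lies far below the solid line and near the dotted one.

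Set beside other mouse ERVK families, the BO level of ERVB4_1B-I was not a property of all of them. In the subfamily counts its log2 difference of BO from INPUT was 1.49. That of MMERVK10C-int was -0.59, those of IAP ran from -1.09 to 0.17 and those of ETn and MusD from -0.91 to 0.32. For loci, a mean of 10 or more in BO or IP was required. Those that reached it in 1 group alone have ratios fixed on 1 side of 1, so the locus shares below are descriptions only. Of 154 MMERVK10C loci, 100 (64.9%) were past 2-fold higher in IP than in BO and 5 lower, with a median ratio of 3.01, where 19.1% and 56.7% of all repeat loci were and the median was 0.403. Of 104 IAP loci, 23 were higher and 46 (44.2%) lower, with a median of 0.530, whereas 7 of 25 IAP subfamilies were past 2-fold higher and 1 lower in the subfamily counts, with a median log2 difference of 0.50. Of 22 ETn and MusD loci, 0 were higher and 17 (77.3%) lower, with a median of 0.251, whereas their 3 subfamilies had log2 differences of IP from BO between -0.65 and 0.31 in the subfamily counts, 0 of them past 2-fold. Within a library, ERVB4_1B-I outnumbered MMERVK10C-int by 14.8 ± 2.07 in BO, 3.47 ± 0.399 in INPUT and 3.22 ± 0.285 in TOTAL, and was at 0.562 ± 0.0570 of it in IP (SD, n = 3). The order of these abundant ERVK transcripts was thus inverted between beads with and without the antibody. These are descriptions, as BO levels chose the members.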

How the data were processed

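RNA of 4 groups (TOTAL, INPUT, BO, IP), 3 libraries each, was sequenced with a stranded, ribosomal RNA-depleted kit. Members and gene lists were chosen with earlier results of these data known. Per the labels and the study's methods, STAR 2.6.0c (mm10), Telescope for multimapped repeat reads, a sum per subfamily and EBSeq scaling were the authors' steps. The deposited signal is this upper quartile normalised count. For loci, the deposited signal is the mean normalised count of each group from DESeq2 1.24.0, and ratios were taken within 1 table. The authors' log2 fold changes, test score, p-value and adjusted p-value in those tables were not used.

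All values were whole multiples of 1 step per library (100% within a tolerance of 0.1 read), which gave the reads per library. Subfamilies with a mean of at least 10 (1180 of 1528) were fitted as log2(value + 1) with limma 3.58.1 (R 4.3.3, trend, 4 groups in 1 fit, Benjamini-Hochberg adjustment), so fold changes of low subfamilies are understated. The fit was tested on simulated data. A member was called at a log2 difference beyond 1 with an adjusted p under 0.05. Loci needed a mean of at least 10 in either group. Intervals were not computed for locus means, whose depth is unknown. Alternatives were other pseudocounts, filters and scalings, a fit of the compared groups alone, a replicate block, edgeR 4.0.16, DESeq2 1.42.0 and each replicate left out. Deviations from the group mean of same-numbered libraries correlated at 0.321 to 0.629 between TOTAL and INPUT, so the numbers, which come from the labels, were taken to pair these groups; between other groups at least 1 of 3 correlations was under 0.1. Named loci were the highest of each subfamily, the 10 highest in BO, IP and TOTAL, and the 3 lowest and 3 highest in IP over BO among those with a mean of at least 50 in BO or IP (the rule asked for the 3 furthest above 1, and none lay above it). Tissue markers were read from the TOTAL means; Hbb-bs and Hba-a1 were not found under those names.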

Additional observations from a re-analysis of the deposited data

How the results depend on the processing

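Scaling each library to its total changed the counts of called members most, to 3 higher and 0 lower in IP against INPUT (0 and 1 in the report), 11 higher in IP against TOTAL (2) and 10 higher in INPUT against TOTAL (0), where 126, 1014 and 637 of all 1180 subfamilies were called higher, and it put 5 members past 2-fold higher in IP against BO (2) and 0 lower in BO against TOTAL (1). Under it, log2 differences of IP from TOTAL turned positive for ERVB2_1A-I (1.38), ERVB4_1-I (1.18), ERVB4_1B-I (1.03), ERVB4_1B-LTR (1.09), ERVB4_1C-LTR (1.30), ERVB4_2-I (1.45) and ERVB5_1-LTR (1.37), and, short of the threshold, for ERVB2_1-I (0.69) and ERVB4_3-I (0.78). The median of all subfamilies moved with it, to 1.49 for IP against TOTAL, 1.03 for INPUT against TOTAL and 0.47 for IP against INPUT. Median ratio scaling, edgeR and DESeq2 each gave 2 higher and 0 lower in IP against INPUT. Over all 1180 subfamilies, edgeR called 46 higher and 31 lower there, against 38 and 34 by limma. A pseudocount of 10 left 1 member higher in IP against TOTAL. BO against TOTAL had 0 members past 2-fold lower with a pseudocount of 10 or a filter at a mean of 100, and 2 with no filter. The filter at 100 left 1 past 2-fold higher in IP against BO, and edgeR put 1 past 2-fold lower in BO against INPUT. The cause was not tested in these cases, apart from the filters, which change the members counted.

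With each replicate left out in turn, 0 to 1 members were called higher and 0 to 1 lower in IP against INPUT (the higher one without replicate 3, the lower one lost without replicate 2 or 3), and 1 to 2 higher in IP against TOTAL (1 without replicate 2 or 3). Past 2-fold lower were 0 to 1 in BO against INPUT (1 without replicate 1 or 3) and 0 to 1 in BO against TOTAL (0 without replicate 1 or 3). Without BO replicate 3, an alternative added after the data were seen, these 2 counts were 1 and 0.

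For loci, a minimum mean of 3 gave 10 higher and 89 lower in IP against BO, 13 and 58 against INPUT, and 10 and 43 against TOTAL. A minimum of 50 gave 0 higher against each, with 34 lower against BO and 12 lower against TOTAL. Loci chosen by an INPUT mean of 10, added after the data were seen, gave 2 higher against BO. Centring on the median repeat locus left 19 lower against INPUT.

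The replicate block changed no count of members, which stayed at 0 higher and 1 lower in IP against INPUT and 2 higher in IP against TOTAL. It brought the adjusted p of ERVB4_1-I in INPUT against TOTAL under 0.05 (0.0118) without reaching 2-fold. In IP against TOTAL it did the same for ERVB4_1B-I (0.00209) and ERVB4_1-I (0.0380), again short of 2-fold. In IP against INPUT it took that of ERVB4_3-I over 0.05 (0.0595). In comparisons with IP the correlations of same-numbered libraries ran from -0.142 to 0.122, so the libraries were not taken as paired there. Whether they share an extract is not known. A library correlated best with its own number in 18 of 36 choices over the groups, and 2 of 12 libraries did so in every other group. Depth limits the low members most, as ERVB2_1-I had 10 to 13 reads per IP library, and locus means carry no spread at all.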

Other observations

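Loci of ERVB4_1B-I with close locus numbers had close IP to BO ratios, a pattern noticed after the values were seen. Among the 27 loci with a BO mean of at least 100, the 15 pairs whose numbers lay within 2 of each other differed by a median of 0.099 in the log2 of this ratio, and by 0.530 at most. The 336 other pairs differed by a median of 0.842 and by 2.65 at most. Loci 42 and 44 had ratios of 0.0779 and 0.0788, loci 1214 and 1215 had 0.0794 and 0.0792, and loci 432 and 433 had 0.0497 and 0.0426. Loci 515 and 517 were at 0.246 and 0.268, and loci 997 and 998 at 0.123 and 0.122. What the numbers count is not stated in the sources used here, and pairs that share a locus are not independent, so no test was made.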
